A study of Mus musculus with 48 samples.

Results

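Of the NRF2 antioxidant programme, 10 genes were followed, chosen by name as the factor itself, its inhibitor and 8 of its textbook targets, and all 10 of 10 were found among the 47480 gene symbols of the count tables. They were Nfe2l2, which encodes NRF2, Keap1, Gclc, Gclm, Slc7a11, Txnrd1, Srxn1, Nqo1, Hmox1 and Osgin1. These genes and the other gene lists below were chosen with earlier results of these data known. Their medians and shares beside those of all genes are therefore descriptions only. The cells were C2C12, an established mouse muscle cell line whose myoblasts fuse into myotubes when serum is reduced. All groups were cells of this 1 line on flexible, collagen-coated plates, and the stretched groups were deformed in all directions in repeated cycles by a Flexcell system, for 1, 3 or 6 h. Myoblasts were kept in growth medium and differentiated cells in a low-serum medium for several days, and each time had non-stretched cells of its own, which gave 12 groups of 4 and 48 libraries. RNA was taken directly after stretching. Replicates 7 and 8 came from an experiment coded B27 in myoblasts and B25 in differentiated cells, and replicates 9 and 10 from B31 and B28. The stretched differentiated group at 1 h held replicates 4, 7, 8 and 9, and its replicate 4 was the single library of experiment B17. The codes are from the sample titles and the column headers of the tables. For stretched myoblast replicate 9 at 1 h these differ, B231 in the title and B31 in the header, and it was counted with B31. The libraries of a group were separate samples from more than 1 experiment, and they were tested as 4 independent samples. The p-values thus measure the spread among the libraries of a group. How the effect of stretching varies between experiments rests on few experiments, and the p-values do not measure it. A culture of 1 cell line models the mechanical load without nerve, blood supply or the other cells of muscle.

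NRF2 is a transcription factor that is held in the cytoplasm and sent for degradation by KEAP1, whose reactive cysteines sense oxidants and electrophiles. When KEAP1 is modified, NRF2 accumulates, enters the nucleus, pairs with a small MAF protein and binds antioxidant response elements near genes for glutathione synthesis, thioredoxin recycling, quinone detoxification and haem breakdown. Because the control acts mainly on the protein, the mRNA of Nfe2l2 itself need not follow the activity of the factor. In muscle the pathway is known for its part in handling the oxidants that contraction and load produce.

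RefSeq promoter windows of 300 bases (250 before and 50 after a transcript start, GRCm38.p6) were at hand for 8 of the 10 genes, in 10 windows, and not for Gclc and Hmox1. They were searched on both strands for TGACNNNGC, the core of the antioxidant response element, and for TGANTCAGC, a core of the MAF-recognition kind that was added after the windows had been looked at. The motifs can overlap, so that 1 site may match both. The first was in 12.4% of all 32851 windows and in 4 of the 10 windows of these genes, 1 each of Nfe2l2, Gclm, Txnrd1 and Srxn1. The other windows of Txnrd1 held no match. In the Nfe2l2 window the bases just after the start were not found in a transcript of the gene. The second was in 1.19% of all windows and in 2 of the 10, those of Srxn1 and Osgin1. Srxn1 held both, and its match to the first motif lay 28 bases after the start. Keap1, Nqo1 and Slc7a11 had neither in these windows. The stretches from 150 to 31 bases before the start are shown for the 4 genes that held a match there, since these genes are followed through the results, with the match in capitals, and a match is a description of the letters only. All are on the plus strand, and those of Osgin1, Gclm and Txnrd1 hold the motif in reverse complement. None of the bases shown lie in an exon of the gene; the stretches of Osgin1 and Txnrd1 lie inside the annotated gene, in introns of longer transcripts, and those of Srxn1 and Gclm just before it.
Srxn1, chr2:152105374-152105493: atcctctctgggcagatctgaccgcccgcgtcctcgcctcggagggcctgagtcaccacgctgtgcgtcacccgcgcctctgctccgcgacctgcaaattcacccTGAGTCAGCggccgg
Osgin1, chr8:119436997-119437116: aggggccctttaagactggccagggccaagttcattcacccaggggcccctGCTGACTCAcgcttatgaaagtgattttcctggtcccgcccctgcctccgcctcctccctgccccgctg
Gclm, chr3:122245407-122245526: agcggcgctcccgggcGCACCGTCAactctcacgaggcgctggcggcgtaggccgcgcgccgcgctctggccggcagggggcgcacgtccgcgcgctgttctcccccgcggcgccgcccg
Txnrd1, chr10:82859056-82859175: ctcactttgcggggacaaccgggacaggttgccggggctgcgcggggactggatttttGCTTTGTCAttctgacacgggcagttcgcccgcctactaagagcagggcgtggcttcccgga

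The libraries held between 48447318 and 77080730 counts, and every one of the 10 genes had at least 791 counts in every library, so that all 10 passed the filter on low counts in each comparison. Levels are given as CPM, counts scaled to library size after TMM scaling. The muscle differentiation markers found in the tables (7 of a list of 8) summed to between 7280 and 9110 CPM in differentiated cells and between 4.98 and 12.6 CPM in myoblasts, which fits the labels. A list of 4 myoblast markers (Pax7, Myf5, Myod1 and Des) did not separate the stages in the matching direction. It summed to between 886 and 1110 CPM in myoblasts and between 2980 and 3520 CPM in differentiated cells. Markers of blood, endothelial, epithelial, fat and glial cells (9 genes) had a summed level of at most 3.61 CPM in any myoblast library and of at most 18.7 CPM in any differentiated one, and 5 of the 9, Ptprc, Pecam1, Epcam, Adipoq and Sox10, had a median of at most 3 counts in both stages. In bulk RNA, fewer cells of a type and less RNA per cell cannot be told apart.

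The first question was which of the genes responded to stretching in myoblasts and when. After 3 h, 6 of the 10 genes rose and 1 fell at an adjusted p under 0.05, with edgeR's quasi-likelihood test and Benjamini-Hochberg adjustment over all genes. Among all 14813 genes tested, 31.9% passed that limit (16.0% higher and 15.8% lower). The median log2 change of the 10 genes was 0.27, against -0.007 over all genes tested. Only Hmox1 also passed a log2 change of 0.58, the second limit used here (a 1.5-fold change), and 1.71% of all genes passed both. When the fold limit itself was the hypothesis tested (glmTreat), 0 of the 10 passed. In 6 of the 10 genes all 4 stretched libraries lay above all 4 non-stretched ones, and 17.1% of all genes did so. Across the 6 the rises were between 0.25 and 0.68 on the log2 scale.

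Hmox1 (chr8:75093621-75100589, plus strand, mm10), which encodes the inducible haem oxygenase that opens the haem ring, had the largest change of the 10 genes. In myoblasts at 3 h its levels in the non-stretched libraries were 29.2, 27.6, 31.5 and 34.1 CPM for replicates 7 to 10, and in the stretched libraries 49.4, 50.1, 49.9 and 47.8 CPM. The lowest stretched library stood well above the highest non-stretched one. The difference was 0.68 on the log2 scale (SE 0.053), a 1.6-fold rise, with an adjusted p of 3.24e-06 in edgeR's quasi-likelihood test, and it was 0.81 within experiment B27 and 0.57 within B31.

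Of the 3 genes of glutathione supply, Gclc and Gclm rose. Gclc (chr9:77754535-77794485, plus strand) encodes the catalytic subunit of glutamate-cysteine ligase, which carries out the rate-limiting step of glutathione synthesis. Its CPM in myoblasts at 3 h were 67.3, 66.1, 68.5 and 66.3 without stretch and 99.1, 96.6, 95.1 and 91.7 with stretch. The stretched levels were all higher, by 0.50 on the log2 scale (SE 0.028, adjusted p 3.17e-07 by edgeR). Gclm (chr3:122245557-122270732, plus strand), which encodes the modifier subunit of the same enzyme, went from 74.2, 76.6, 78.5 and 79.4 CPM to 95.3, 96.1, 97.5 and 90.3 CPM. This was a rise of 0.29 (SE 0.032, adjusted p 3.4e-05 by edgeR), again with no overlap of the libraries. Of the 31-base stretches of Gclm transcripts, 5.61% are shared with other genes, so a small part of its counts depends on how Salmon divided the reads. Slc7a11 (chr3:49892526-50443614, minus strand), which encodes the cystine importer that feeds the pathway, had 58.3, 51.4, 65.6 and 64.8 CPM without stretch and 66.4, 64.6, 72.6 and 66.7 CPM with stretch. These overlapped, and the difference of 0.16 did not pass (adjusted p 0.0791 by edgeR). With the experiment as a covariate Slc7a11 passed, at 0.17 and an adjusted p of 0.0118. The difference was 0.26 in B27 and 0.09 in B31. Of the 31-base stretches of Slc7a11 transcripts, 2.84% are shared with other genes, and 5 annotated genes overlap it.

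Both genes of the thioredoxin system rose at 3 h in myoblasts. Txnrd1 (chr10:82833951-82897712, plus strand) encodes cytosolic thioredoxin reductase, and its levels were 524.1, 515.6, 510.8 and 511.6 CPM without stretch and 690.2, 673.9, 691.4 and 646.9 CPM with stretch. The change was 0.38 (SE 0.025, adjusted p 8.76e-07 by edgeR) and was 0.39 in both experiments. Srxn1 (chr2:152105516-152111376, plus strand), which encodes the sulfiredoxin that repairs overoxidised peroxiredoxins, had 142.5, 135.9, 146.3 and 150.3 CPM without stretch and 185.3, 185.5, 186.8 and 177.2 CPM with it. Its change was 0.34 (SE 0.033, adjusted p 1.11e-05 by edgeR).

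Osgin1 (chr8:119434124-119446256, plus strand), which encodes an oxidative stress induced growth inhibitor, was the single one of the 10 genes that passed at 1 h in myoblasts. Among all genes, 5.92% passed the adjusted p at that time (1.67% higher and 4.24% lower) and 1.25% both limits. Its CPM at 1 h were 17.4, 17.5, 15.5 and 18.5 without stretch and 20.96, 21.1, 28 and 22.5 with stretch. The libraries did not overlap, as in 13.3% of all genes in either direction, and the change was 0.43 (SE 0.088, adjusted p 0.0153 by edgeR). At 3 h it was 0.25 (adjusted p 5.61e-04 by edgeR), with 16.0, 16.2, 16.2 and 16.8 CPM without and 20.1, 19.0, 20.5 and 18.5 CPM with stretch, and at 6 h 0.01 (adjusted p 0.936 by edgeR).

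At 1 h in myoblasts 8 of the 10 log2 differences were above 0, and 5 of the 10 genes were under 0.05 before adjustment. None passed both limits, by edgeR or by DESeq2, nor the fold limit at an unadjusted p under 0.05. A single library stood out. Stretched replicate 9 was the highest of its group for Gclc, Gclm, Txnrd1, Nqo1, Hmox1, Srxn1, Slc7a11 and Osgin1, with 43.0 CPM of Hmox1 against 31.4 to 38.1 CPM in the other stretched libraries. Within B27 the log2 differences of these 8 genes were between 0.02 and 0.27, and within B31, with which replicate 9 was counted, between 0.10 and 0.57.

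**Figure D1:**
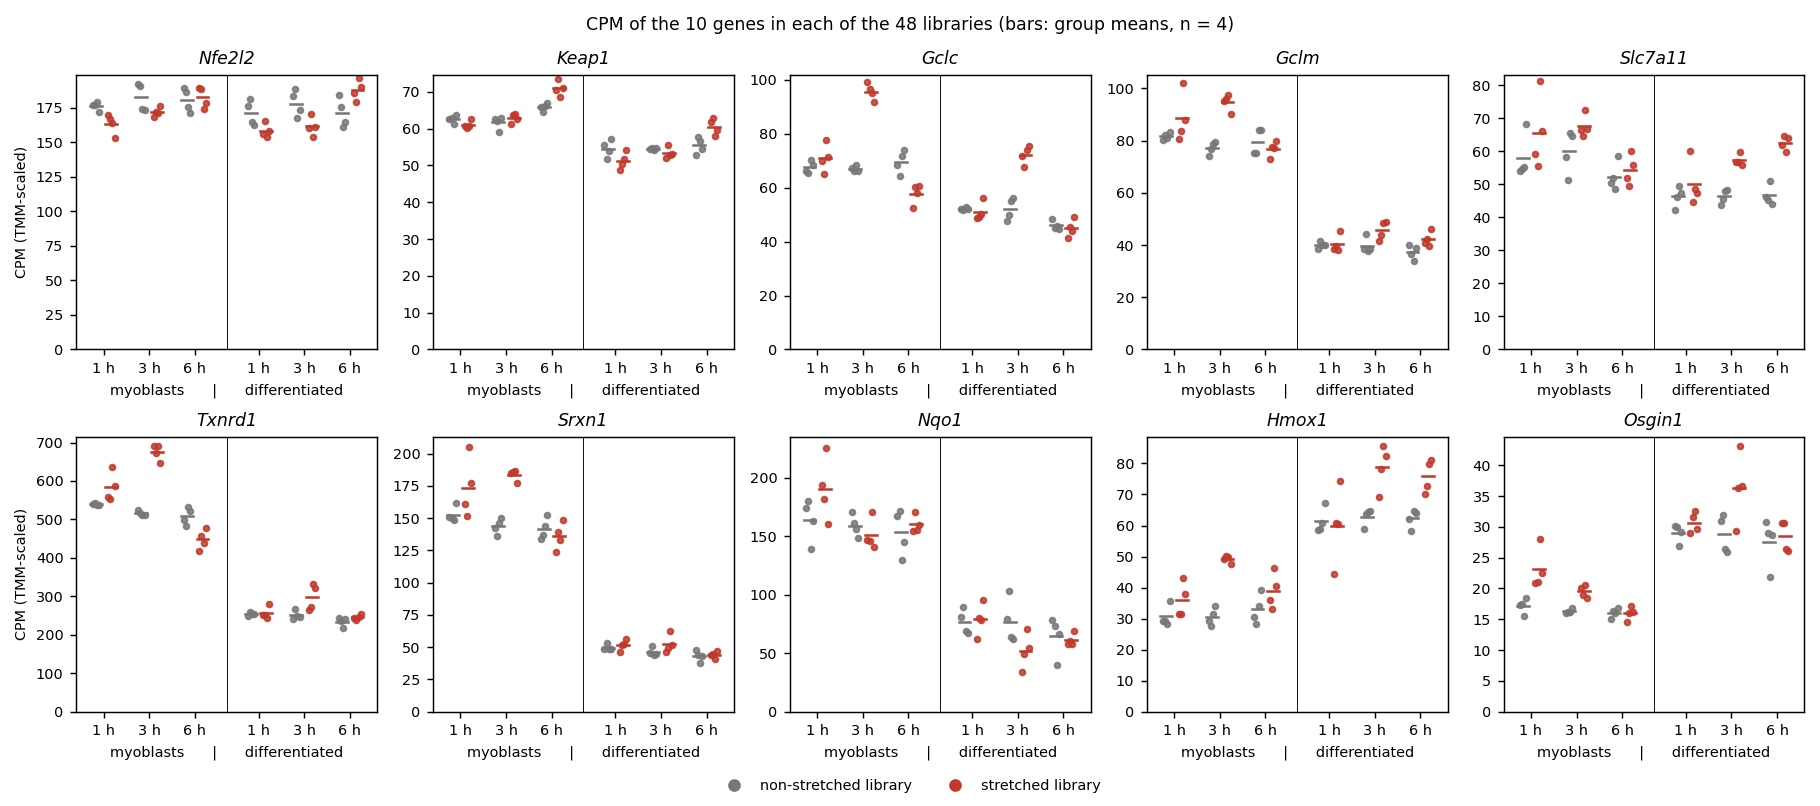
Level of each of the 10 genes in CPM (vertical axes, from 0) in every library, by stage and time, with grey points for non-stretched and red points for stretched libraries and a bar at the mean of each group of 4. In myoblasts at 3 h the stretched libraries of Gclc, Gclm, Txnrd1, Srxn1, Hmox1 and Osgin1 all lie above the non-stretched ones.

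After 6 h in myoblasts Gclc and Txnrd1 were below their controls and Keap1 above. At this time 1 of the 10 genes had risen and 2 had fallen at an adjusted p under 0.05, against 27.2% of all genes (14.1% higher, 13.0% lower), and none passed both limits, as 2.17% of all genes did. No gene of the 10 passed the fold limit at an unadjusted p under 0.05 or with DESeq2 either. Gclc had 68.4, 64.3, 71.8 and 73.8 CPM without stretch and 52.5, 60.2, 57.9 and 60.5 CPM with stretch. It had fallen by 0.25 on the log2 scale (SE 0.049, adjusted p 0.00357 by edgeR), and all stretched libraries were under all non-stretched ones. Txnrd1 did the same, from 497.6, 483.0, 531.1 and 522.2 CPM to 417.6, 457.9, 439.8 and 477.8 CPM, where it had fallen by 0.16 (adjusted p 0.0124 by edgeR). Of all genes, 16.3% had every stretched library below every non-stretched one at 6 h. The groups of Gclm, Srxn1, Nqo1, Slc7a11 and Osgin1 overlapped at 6 h, with changes between -0.04 and 0.08 and adjusted p between 0.47 and 0.936. Hmox1 was at 0.26 (adjusted p 0.106 by edgeR). With the experiment as a covariate Hmox1 passed at 6 h, at 0.26 and an adjusted p of 0.00872.

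The dependence on time was tested directly, with all 24 libraries of a stage in 1 model. In myoblasts the effect of stretching differed among 1 h, 3 h and 6 h for 7 of the 10 genes at an adjusted p under 0.05 (edgeR), and for 32.0% of all genes. Each adjusted p given here is that of 1 joint test over 1, 3 and 6 h, and no single step was tested. For Gclc the effect was 0.43 larger at 3 h than at 1 h and the step from 3 h to 6 h was -0.75, on the log2 scale (adjusted p 5.49e-08). For Txnrd1 the step from 3 h to 6 h was -0.54 (adjusted p 2.83e-07), for Hmox1 -0.41 (0.0419), for Srxn1 -0.38 (0.00691), for Gclm -0.31 (0.00533) and for Osgin1 -0.24 (0.00684). The effect on Keap1 went the other way, by 0.11 (0.00197). For Osgin1 and Keap1 the larger difference was that of 6 h from 1 h, at -0.42 and 0.16. The test for Hmox1 was lost when any of 12 of the 24 libraries was left out (adjusted p up to 0.109). Nfe2l2 (0.0746), Nqo1 (0.185) and Slc7a11 (0.823) did not pass. With the experiment as a covariate Nfe2l2 passed (adjusted p 0.0181 by edgeR), as it did with the replicate number as a block (0.0239).

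**Figure D2:**
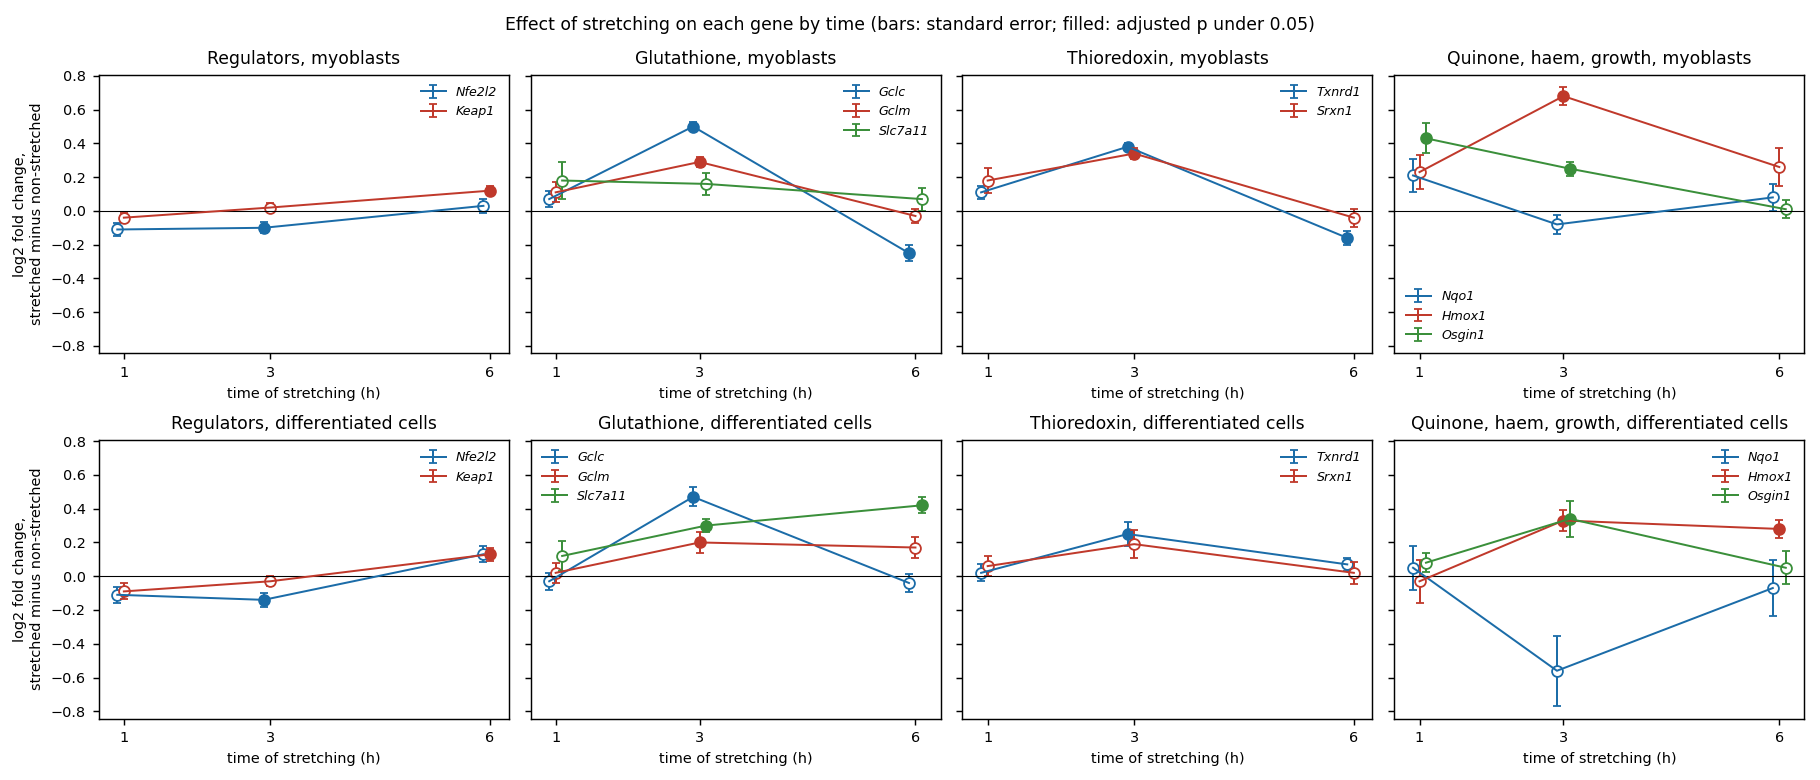
Log2 fold change, stretched minus non-stretched, against hours of stretching for the 10 genes grouped by role, in myoblasts (top) and differentiated cells (bottom). Bars are standard errors from edgeR (4 against 4 libraries) and filled points have an adjusted p under 0.05; in myoblasts Gclc goes from 0.50 at 3 h to -0.25 at 6 h, and in differentiated cells Slc7a11 is at 0.30 and 0.42.

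In differentiated cells none of the 10 genes passed at 1 h, by edgeR or by DESeq2. At an unadjusted p under 0.05 there was 1, Nfe2l2 (-0.11), and of all genes 0.663% passed the adjusted p and 0.270% both limits. Stretched replicate 4, the library from B17, had the lowest Hmox1 (44.3 CPM, against 60.4 to 74.3 CPM in the other 3) and Nqo1 (61.6 CPM, against 78.4 to 95.7 CPM) of its group and the highest Slc7a11 (60.1 CPM, against 44.6 to 48.8 CPM). Without it the Hmox1 difference moved from -0.03 to 0.09, and no gene of the 10 passed.

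At 3 h 6 genes rose and 1 fell in differentiated cells, as many as in myoblasts, against 22.2% of all genes (10.8% higher and 11.4% lower). None passed both limits, as 1.63% of all genes did, nor with DESeq2 or at an unadjusted p. The median change of the 10 genes was 0.22, and -0.001 over all genes. The largest rise was that of Gclc, with 47.7, 49.9, 55.1 and 56.1 CPM without stretch and 71.6, 67.5, 74.1 and 75.5 CPM with stretch. Its rise was 0.47 (SE 0.056, adjusted p 4.31e-04 by edgeR) and was 0.51 in B25 and 0.43 in B28. Hmox1 rose from 58.9, 63.6, 64.4 and 64.7 CPM to 69.1, 78.1, 85.7 and 82.3 CPM, a change of 0.33 (SE 0.060, adjusted p 0.00368 by edgeR). Slc7a11 rose from 43.8, 45.6, 48.1 and 48.3 CPM to 56.8, 56.7, 59.8 and 55.9 CPM, by 0.30 (SE 0.039, adjusted p 6.52e-04 by edgeR). These 3 had no overlap between the groups, where 12.5% of all genes had none in the upward direction, and they passed whichever library was left out.

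The other 3 risers at 3 h, Gclm, Txnrd1 and Osgin1, differed between the experiments in size. Txnrd1 had 241.9, 266.2, 248.0 and 245.2 CPM without stretch and 264.2, 272.4, 332.9 and 321.8 CPM with stretch, with the highest values in stretched replicates 9 and 10. The pooled changes were 0.20 for Gclm (adjusted p 0.045), 0.25 for Txnrd1 (0.0275) and 0.34 for Osgin1 (0.0425), all by edgeR. Within B25 they were 0.05, 0.08 and 0.05, and within B28 0.35, 0.41 and 0.60. Srxn1 showed the same split, with -0.01 in B25 and 0.37 in B28, and did not pass (0.19, adjusted p 0.138). The difference between the experiments itself was not tested. Leaving out 1 library ended the call for Gclm and Osgin1 in 6 of 8 cases each and for Txnrd1 in 5 of 8, with adjusted p up to 0.124, 0.11 and 0.0796. The 6 libraries were all but non-stretched replicate 8 and stretched replicate 7 for Gclm and Osgin1, and Txnrd1 also kept its call without stretched replicate 8.

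At 6 h Slc7a11 and Hmox1 remained above their controls in differentiated cells. Slc7a11 had 46.1, 45.3, 51.1 and 44.1 CPM without stretch and 62.1, 64.6, 59.8 and 63.9 CPM with stretch, a rise of 0.42 (SE 0.048, adjusted p 5.23e-04 by edgeR) and the largest of the 10 genes at that time. Hmox1 went from 62.0, 58.2, 64.6 and 64.2 CPM to 70.0, 72.6, 79.8 and 81.1 CPM, by 0.28 (adjusted p 0.00515 by edgeR). With Keap1 they were the 3 genes that passed, against 22.3% of all genes (11.5% higher and 10.8% lower). None of the 10 passed both limits, as 2.04% of all genes did, and DESeq2 gave 0 as well. The Gclc groups overlapped at 6 h, with 48.4, 45.2, 45.9 and 44.8 CPM without and 41.4, 45.4, 44.1 and 49.1 CPM with stretch (-0.04, adjusted p 0.658 by edgeR). Gclm was at 0.17 (adjusted p 0.0641 by edgeR), and DESeq2 passed it at 0.0434.

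Among the 3 times the effect differed in differentiated cells for 3 of the 10 genes, Gclc (adjusted p 1.2e-04), Nfe2l2 (0.0113) and Keap1 (0.0159), and for 17.2% of all genes (edgeR, 24 libraries). For Gclc the step was 0.50 from 1 h to 3 h and -0.50 from 3 h to 6 h. Hmox1 and Slc7a11 did not pass here (0.127 and 0.0709). With the experiment as a covariate both did, at 0.0335 and 4.83e-04, which made 5 of the 10 genes. Slc7a11 also passed without stretched replicate 4 of 1 h (0.00116).

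Nfe2l2 (chr2:75675513-75704641, minus strand) and Keap1 (chr9:21229730-21239361, minus strand), the factor and its inhibitor, had log2 changes of at most 0.14 in either direction. Nfe2l2 was lower at 3 h in both stages, with log2 changes of -0.10 in myoblasts (adjusted p 0.0358) and -0.14 in differentiated cells (0.0377), by edgeR. Its libraries overlapped in both. In myoblasts they were at 191.9, 190.4, 174.2 and 173.1 CPM without and 167.9, 171.5, 171.1 and 175.9 CPM with stretch, and the difference was -0.17 in B27 and 0 in B31. These 2 calls were lost on leaving out any of 5 of 8 libraries in myoblasts (all but stretched replicate 10 and non-stretched replicates 9 and 10) and any of 6 of 8 in differentiated cells (all but non-stretched replicate 9 and stretched replicate 8). At 6 h in differentiated cells Nfe2l2 was at 0.13 (adjusted p 0.0693 by edgeR), and the shift from the effect at 3 h was 0.27. DESeq2 passed Nfe2l2 at 6 h there, at 0.13 and an adjusted p of 0.0459.

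Keap1 was higher after 6 h in both stages. In myoblasts it had 66.0, 64.5, 66.1 and 66.9 CPM without stretch and 70.6, 73.5, 68.7 and 71.0 CPM with stretch. The change was 0.12 (SE 0.027, adjusted p 0.00622 by edgeR). In differentiated cells it had 52.9, 57.7, 56.6 and 54.6 CPM without and 61.7, 63.0, 57.97 and 59.7 CPM with stretch, a change of 0.13 (SE 0.039, adjusted p 0.0397 by edgeR). The second call was lost on leaving out any of 6 of 8 libraries, all but replicate 9 of either group (adjusted p up to 0.105). An antisense gene, Gm16754, overlaps Keap1. The library preparation was stranded, but the strand setting of the counting is not given, so their reads may not be told apart. The same holds for Gclm, Txnrd1 and Slc7a11, which antisense genes also overlap.

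Nqo1 (chr8:107388225-107403206, minus strand), which encodes the quinone reductase that is widely used as a readout of NRF2, was the one target of the 8 that passed in no comparison of stretched with non-stretched cells. In differentiated cells at 3 h it had 79.3, 102.8, 63.8 and 61.7 CPM without stretch and 33.9, 49.2, 70.9 and 54.4 CPM with stretch, a difference of -0.56 (SE 0.208, adjusted p 0.0809 by edgeR). The low values were in replicates 7 and 8, and the difference was -1.14 within B25 and -0.02 within B28. In myoblasts at 3 h Nqo1 was at -0.18 within B27 and 0.03 within B31. Without stretched replicate 9, Nqo1 passed at 3 h in differentiated cells (-0.75, adjusted p 0.0242) and in myoblasts (-0.15, adjusted p 0.0143). With no filter on low counts it passed at 3 h in differentiated cells (-0.56, adjusted p 0.0365 by edgeR). At 6 h there it passed in 1 of 8 leave-outs (adjusted p 0.0255).

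Nqo1 is also a known target of the aryl hydrocarbon receptor, which senses planar aromatic ligands, and 3 genes of that receptor's pathway, Cyp1a1, Cyp1b1 and Ahrr, also differed by experiment. Of 5 such genes (Ahr, Cyp1a1, Cyp1b1, Ahrr and Tiparp), 3 fell past both limits at 3 h in both stages. Of all genes, 1.71% in myoblasts and 1.63% in differentiated cells passed both limits in either direction. The median of the list was -0.63 in myoblasts and -0.59 in differentiated cells. Cyp1a1, a cytochrome induced by the receptor, had 13.3, 12.7, 2.50 and 2.05 CPM without stretch in myoblasts at 3 h and 1.72, 1.70, 2.62 and 1.90 CPM with stretch. The fall was thus in replicates 7 and 8, whose controls were high, and not in 9 and 10, whose controls were low. In differentiated cells Cyp1a1 had 3.82, 5.29, 0.720 and 0.776 CPM without and 0.0489, 0.115, 0.447 and 0.362 CPM with stretch. Cyp1b1 fell in the same libraries, from 308.3 and 312.3 CPM to 136.4 and 134.2 CPM in B25 and with 206.8 and 213.1 against 219.3 and 201.5 CPM in B28. Ahrr, which encodes a repressor of the receptor, had 19.2, 17.1, 10.5 and 9.76 CPM without and 9.31, 8.57, 10.6 and 8.34 CPM with stretch in myoblasts at 3 h. Ahr, the receptor gene, rose in myoblasts at 3 h by 0.23, and Tiparp was at -0.04 (adjusted p 0.747). At 1 h 1 of the 5 rose in myoblasts (1.67% of all genes rose) and none passed in differentiated cells (0.663% of all genes). At 6 h none passed in myoblasts (27.2% of all genes) and 3 fell in differentiated cells (10.8% of all genes fell). With all 24 libraries of the stage in the fit the 3 h calls of Cyp1a1, Cyp1b1 and Ahrr in myoblasts were lost (adjusted p 0.0933, 0.198 and 0.146). The Cyp1b1 calls at 3 h were lost with DESeq2 (adjusted p 0.109 in myoblasts and 0.055 in differentiated cells). With the replicate number as a block Cyp1b1 was lost in myoblasts (0.0502) and differentiated cells (0.0898), and Ahrr in differentiated cells (0.0693). Over 15 alternatives the Cyp1b1 call was lost in 9 in myoblasts and 7 in differentiated cells and the Ahrr call in 2 and 5. The part of this difference between experiments in the Nqo1 values was not tested.

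**Figure D3:**
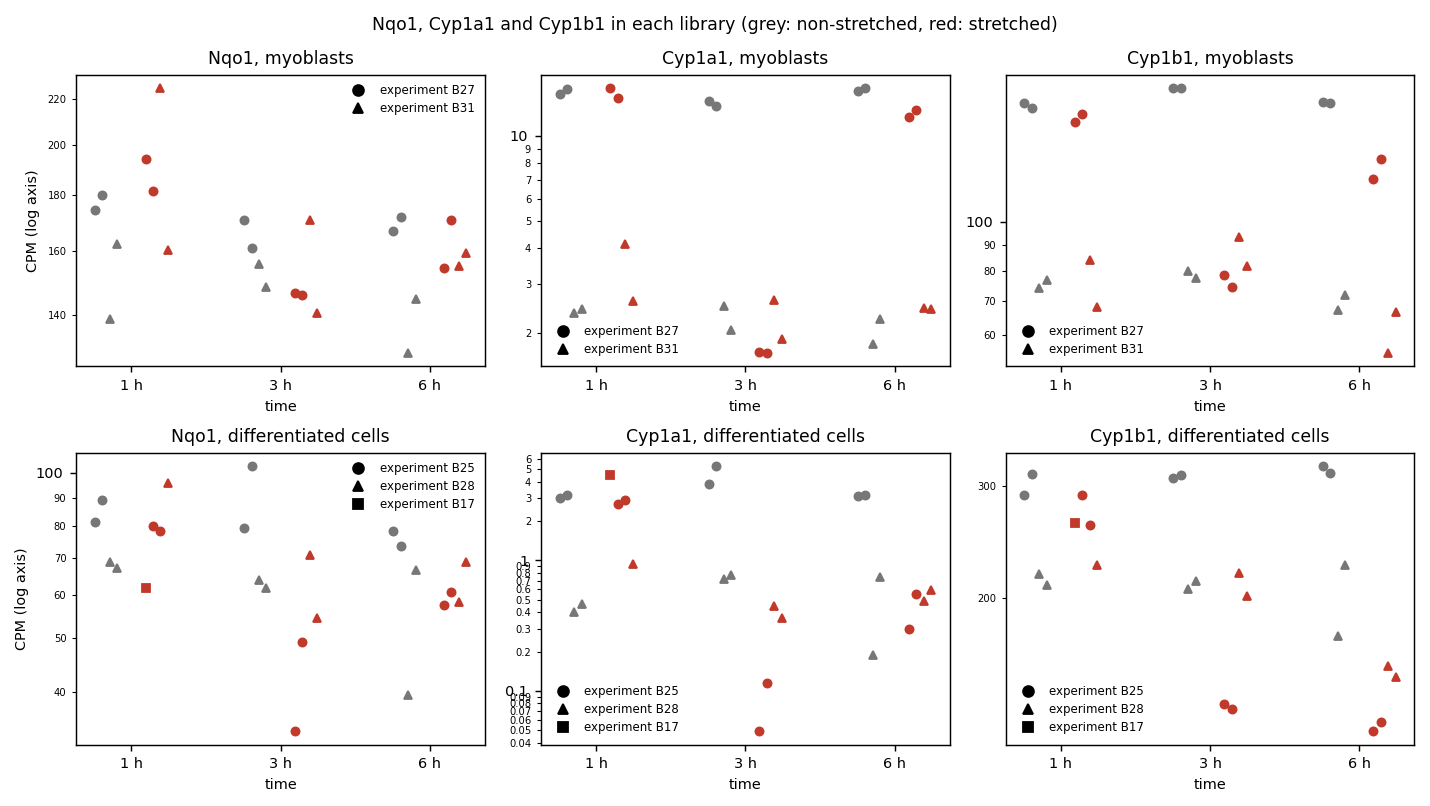
CPM of Nqo1, Cyp1a1 and Cyp1b1 (log axes) in each library by time, grey without and red with stretch, with a marker shape for each experiment. At 3 h in differentiated cells Nqo1 is at 33.9 and 49.2 CPM in the stretched B25 libraries and at 70.9 and 54.4 CPM in those of B28, and Cyp1b1 is at 136.4 and 134.2 CPM against 219.3 and 201.5 CPM.

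The next question was whether the stages responded differently. In a model of all 48 libraries the effect of stretching differed between the stages for 1 of the 10 genes, Txnrd1 at 6 h, where it was 0.25 more positive in differentiated cells (SE 0.074, adjusted p 0.0342 by edgeR; 5.98% of all genes passed). This call was lost with no filter on low counts (adjusted p 0.0807), with at least 10 counts required in every library (0.0554), and without any one of 21 of the 48 libraries (up to 0.117). Leaving out a library also let the filter keep more genes, and with the genes of the full model kept it was lost without any one of 8 (up to 0.0893). Gclc (0.23, adjusted p 0.0571) and Slc7a11 (0.37, adjusted p 0.07) were next. At 3 h none of the 10 passed (edgeR; 2 at an unadjusted p under 0.05; 1.01% of all genes), and Hmox1 was at -0.36 (SE 0.152, adjusted p 0.365), a difference that did not pass. At 1 h none passed either (1 unadjusted; 0.170% of all genes).

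The stages were then compared without stretch. Of the 10 genes, 6 differed past both limits, and of all genes 52.0% did. Srxn1, Txnrd1, Gclm and Nqo1 were lower in differentiated cells, and Hmox1 and Osgin1 higher. Srxn1 had a range of 133.5 to 161.3 CPM (median 147.5) in the 12 non-stretched myoblast libraries and of 38.0 to 52.9 CPM (median 46.5) in the 12 differentiated ones, 3.16-fold lower. Txnrd1 was 2.12-fold lower, with 483.0 to 541.7 against 218.0 to 266.2 CPM, and Gclm 2.04-fold lower, with 74.2 to 83.9 against 34.1 to 44.4 CPM. Nqo1 was 2.19-fold lower, with 129.2 to 179.9 against 39.5 to 102.8 CPM. None of these ranges met. The log2 differences were -1.66 (SE 0.045), -1.08 (SE 0.030), -1.03 (SE 0.036) and -1.13 (SE 0.095) in that order, with adjusted p of at most 1.25e-14 by edgeR.

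Hmox1 and Osgin1 were the reverse, higher in differentiated cells. Hmox1 had 27.6 to 39.2 CPM (median 29.9) in non-stretched myoblasts and 58.2 to 67.3 CPM (median 62.8) in non-stretched differentiated cells, 1.98-fold higher (0.99, SE 0.063, adjusted p 1.37e-18 by edgeR). Stretched myoblasts at 3 h, at 47.8 to 50.1 CPM, thus stayed below the differentiated cells without stretch. Osgin1 was 1.72-fold higher. Gclc (-0.44), Slc7a11 (-0.29) and Keap1 (-0.21) were lower at an adjusted p under 0.05 but within the fold limit, and Nfe2l2 (-0.05, adjusted p 0.0606 by edgeR) had overlapping ranges of 171.2 to 191.9 and 160.6 to 188.1 CPM. The call for Nfe2l2 depended on the scaling and filter used, and which of these mattered was not tested. It passed with RLE scaling (-0.06, adjusted p 0.033) and with the filter set for a smallest group of 3, which kept 17218 genes in place of 17044 (-0.08, 0.00367), and it did not pass with no filter (-0.02, 0.515). The stages also differ in experiment, medium and cell density, and these cannot be told apart from differentiation.

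**Figure D4:**
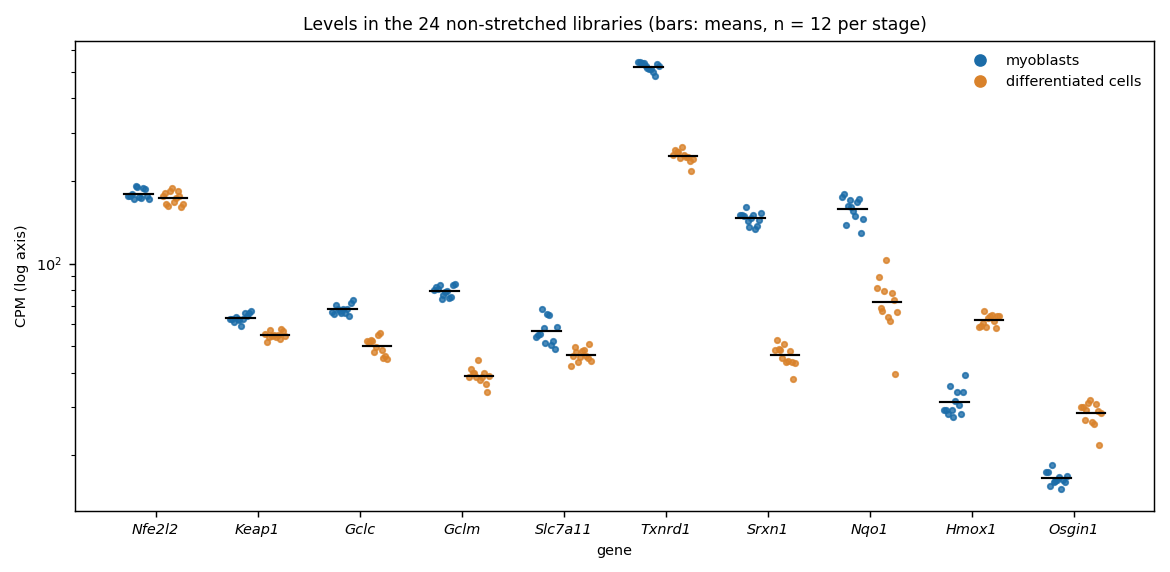
CPM (log axis) of the 10 genes in the 24 non-stretched libraries, 12 of myoblasts and 12 of differentiated cells, with bars at the means. Srxn1, Txnrd1, Gclm and Nqo1 are lower in differentiated cells with ranges that do not meet, Hmox1 and Osgin1 are higher, and Nfe2l2 overlaps.

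The partners and regulators of NRF2 were described from a list of 12 genes. In myoblasts at 3 h, 8 of 12 rose and none fell, and in differentiated cells 5 of 11 tested rose and none fell, against 16.0% and 10.8% of all genes that rose. Mafk, which encodes a small MAF partner, rose by 0.27 in myoblasts at 1 h (adjusted p 0.00378 by edgeR) and by 0.36 in differentiated cells at 3 h (1.46e-04). Sqstm1, whose product p62 binds KEAP1 and leads it to autophagy, was at 392.1, 368.7, 406.6 and 418.5 CPM in non-stretched and at 535.0, 535.6, 544.4 and 530.4 CPM in stretched myoblasts at 3 h. The rise was 0.42 (SE 0.035, adjusted p 5.35e-06 by edgeR) and was still 0.47 at 6 h (2.14e-04). In differentiated cells Sqstm1 was at 0.08 at 3 h (adjusted p 0.249) and rose by 0.27 at 6 h (0.00272). Maff, another small MAF gene, rose by 0.30 in differentiated cells at 6 h (0.0017). Bach2, which encodes a repressor that competes for the same elements, rose by 0.74 in myoblasts at 3 h (0.00278) and had fallen by 1.07 at 6 h (0.00613), from counts of only 15 to 86 in these libraries. In differentiated cells at 6 h Bach2 had fallen by 0.50 (0.0264) and Btrc, part of a ligase that targets NRF2, by 0.16 (0.0177). Of 15 alternatives, the Bach2 call in differentiated cells was lost in 6 (adjusted p up to 0.0685) and the Btrc call in 1 (0.059). At 1 h 2 of the 12 regulators rose in myoblasts, against 1.67% of all genes, and none of 11 in differentiated cells, against 0.663% in either direction. At 6 h 3 rose and 1 fell in myoblasts, against 14.1% and 13.0% of all genes, and 5 rose and 2 fell in differentiated cells, against 11.5% and 10.8%.

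A wider list of 34 other NRF2 targets, 32 of them tested, held the remaining genes. In myoblasts at 3 h 13 rose and 2 fell, with a median of 0.07, against 16.0% and 15.8% of all genes. In differentiated cells at 3 h 2 rose and 4 fell, with a median of -0.07, which was near the 10.8% and 11.4% of all genes. At 6 h 5 rose and 1 fell in myoblasts, against 14.1% and 13.0% of all genes. In differentiated cells 5 rose and none fell at 6 h, against 11.5% and 10.8%. At 1 h 2 rose in myoblasts (1.67% of all genes) and 1 in differentiated cells (0.663% in either direction). Trim16, which encodes a ubiquitin ligase linked to NRF2 stability, rose early in both stages, by 0.31 in myoblasts (adjusted p 0.0041) and 0.40 in differentiated cells (0.0162) at 1 h, both by edgeR. In differentiated cells at 3 h Trim16 went from 46.4, 49.4, 50.7 and 50.3 CPM to 71.3, 69.4, 86.3 and 82.6 CPM, a 1.57-fold rise (0.65, SE 0.067, adjusted p 2.16e-04). Gsta1 and Gsta2, glutathione transferases, rose in myoblasts at 6 h by 0.59 (0.017) and 0.50 (0.0158), and Gsta2 fell in differentiated cells at 3 h by 0.99 (0.0319). Aldh3a1, an aldehyde dehydrogenase, fell at 3 h by 0.35 in myoblasts (0.0361) and 0.81 in differentiated cells (0.038), and Ugt1a6a, a glucuronosyltransferase, fell by 0.52 in myoblasts (0.0201). Abcc1, an exporter of glutathione conjugates, had fallen by 0.18 in myoblasts at 6 h (0.00759). Several of these calls were lost in some of 15 alternatives: Aldh3a1 in 7 in each stage (adjusted p up to 0.11 and 0.105), Gsta2 in 5 in differentiated cells (0.095) and 1 in myoblasts (0.1), Trim16 at 1 h in differentiated cells in 5 (0.0875), and Gsta1 (0.0577) and Ugt1a6a (0.153) in 3 each. Both Aldh3a1 and Ugt1a6a are, like Nqo1, known targets of the aryl hydrocarbon receptor as well.

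Antioxidant enzymes outside the core NRF2 set (18 genes, among them superoxide dismutases, catalase and peroxiredoxins) had no common direction. At 3 h 4 rose and 2 fell in myoblasts and 3 rose and 3 fell in differentiated cells, with medians of 0.02 and 0.01, shares near those of all genes (16.0% and 15.8%, and 10.8% and 11.4%). At 6 h 3 rose and 3 fell in myoblasts, against 14.1% and 13.0% of all genes, and 2 rose in differentiated cells, against 11.5%. At 1 h none passed in either stage (edgeR), against 5.92% of all genes in myoblasts and 0.663% in differentiated cells. Genes of the ATF4 pathway, the amino acid stress response that also drives Slc7a11, rose at 3 h in 8 of 14 cases in myoblasts, where 2 fell, and in 7 of 14 in differentiated cells, against 16.0% and 10.8% of all genes that rose. At 1 h 3 rose and 1 fell in myoblasts, against 1.67% and 4.24% of all genes, and none passed in differentiated cells. At 6 h 2 rose and 1 fell in myoblasts, against 14.1% and 13.0%, and 3 rose in differentiated cells, against 11.5%. Of the ATF4 genes, Ddit3 was higher past both limits at 6 h in both stages (1.18 and 0.97), where 2.17% and 2.04% of all genes passed both. Of the heat shock genes, which encode chaperones, 9 of 9 in myoblasts and 7 of 9 in differentiated cells rose at 6 h, against 14.1% and 11.5% of all genes, with medians of 0.48 and 0.53. At 3 h 4 rose in myoblasts, against 16.0% of all genes, and none passed in differentiated cells. At 1 h 1 rose in myoblasts, against 1.67%, and none passed in differentiated cells. Past both limits at 6 h were Hspa1a, Hspa1b, Hsph1 and Dnajb1 in myoblasts (0.58 to 1.26) and Hspa1b, Hsph1, Dnajb1 and Hsp90aa1 in differentiated cells (0.59 to 0.94). Hsph1, a chaperone, was 1.03 higher in myoblasts (adjusted p 0.00285) and 0.89 higher in differentiated cells (0.00454).

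Hmox1, the one gene of the 10 past both limits under stretch, was compared with 14005 other genes over the 24 libraries of each stage. The genes whose log2 CPM followed it most closely were Arl8a (mean Pearson r 0.891), Sqstm1 (0.837), Tollip (0.834), Zfand2a (0.817) and Brap (0.813). Of the other 9 genes of the programme Gclm was nearest by the mean r, with 0.715 in myoblasts and 0.670 in differentiated cells and the rank 63. Nqo1 was farthest by the mean r, with -0.187 and -0.239. Nfe2l2 had the lower r in myoblasts, -0.478, and 0.117 in differentiated cells. These r describe libraries that share groups and experiments, and no p is given.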

How the data were processed

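RNA-seq of C2C12 cells was analysed in 48 libraries, in 2 tables of 24 columns. The authors aligned reads with STAR, quantified them with Salmon on mm10 and deposited estimated counts per gene; the strand setting of the counting is not given in the sources used here. The labels call the molecule nuclear RNA, whereas the study's methods describe extraction from whole cells. The deposited estimated counts were read as whole numbers, which drops any fraction. Genes were filtered with filterByExpr, scaled by TMM and tested with edgeR 4.0.16 (R 4.3.3, limma 3.58.1), stretched against non-stretched at each time and stage, 4 against 4 libraries, using the quasi-likelihood test with Benjamini-Hochberg adjustment over all genes tested. The limits were an adjusted p under 0.05 and, for both limits, a log2 fold change of at least 0.58. Effects of time were tested over 24 libraries of a stage and effects of stage over 48. CPM used the TMM scaling of all 48 libraries, whose totals of 48447318 to 77080730 counts set the precision; log2 CPM had a prior count of 1. The scripts were tested on simulated data. Alternatives were DESeq2 1.42.0, other scalings and filters, the experiment or replicate number as a term, glmTreat, and leaving out each library. No 2 libraries held identical values. The 10 genes and the other lists were chosen with earlier results of these data known. All 10 were named in each comparison. Of the other lists, genes past both limits were named, and of regulators and other targets also the 2 largest rises and 2 largest falls that passed the adjusted p. Gene positions are from GENCODE vM21 on mm10 and promoter windows from RefSeq.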

Additional observations from a re-analysis of the deposited data

Results flagged for a closer look

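In 7 of 120 combinations of gene and group 1 library lay apart from the other 3 by Dixon's criterion; chance alone sets about 1 in 20 groups apart. In non-stretched myoblasts at 1 h, replicate 10 was the highest for Hmox1 (35.7 CPM), Srxn1 (161.3 CPM) and Slc7a11 (68.2 CPM). Stretched myoblast replicate 10 was highest for Keap1 at 1 h (62.7 CPM) and lowest for Srxn1 at 3 h (177.2 CPM). In non-stretched differentiated cells, replicate 8 was highest for Srxn1 at 1 h (52.9 CPM) and for Gclm at 3 h (44.4 CPM).

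The effect of stretching differed among the times in myoblasts for Gclc (adjusted p 5.49e-08), Txnrd1 (2.83e-07), Keap1 (0.00197), Gclm (0.00533), Osgin1 (0.00684), Srxn1 (0.00691) and Hmox1 (0.0419), all by edgeR. In differentiated cells it differed for Gclc (1.2e-04), Nfe2l2 (0.0113) and Keap1 (0.0159). Between the stages it differed for Txnrd1 at 6 h (0.0342).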

How the results depend on the processing

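Of 4074 values of single genes compared with an alternative, 3852 kept their side of the limit (18 of them changed sign while passing in neither fit), 137 no longer passed, 85 passed newly and 0 reversed. With glmTreat 0 of the 10 genes passed both limits in myoblasts at 3 h, in place of 1. DESeq2 passed 5 in place of 3 in differentiated cells at 6 h. The time effect in differentiated cells passed for 5 in place of 3 with the experiment as a covariate and with the replicate block. The stage effect at 6 h passed for 0 in place of 1 with no low count filter and with at least 10 counts in every library. The causes were not tested.

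Leaving out 1 library at a time, the number of the 10 genes at an adjusted p under 0.05 was 1 to 1, 6 to 8 and 3 to 4 in myoblasts and 0 to 0, 3 to 6 and 2 to 4 in differentiated cells at 1, 3 and 6 h. Past both limits it was 1 to 1 in myoblasts at 3 h, 0 to 1 in differentiated cells at 3 h (1 without stretched replicate 9) and 0 to 0 elsewhere. The time effect passed for 6 to 8 in myoblasts and 3 to 5 in differentiated cells, the stage effect for 0 to 0 at 1 h and at 3 h and 0 to 2 at 6 h, and the stage difference without stretch for 6 to 6. The count of 7 in differentiated cells at 3 h fell to 3 when replicate 10 of either group or non-stretched replicate 7 was left out, and to 4 when replicate 9 of either group was. Each leave-out was filtered again and so kept more genes, since the smallest group was then 3. With the genes of all libraries kept, an alternative chosen after seeing the data, 60 of 2880 values fell on the other side of the limit, none in a comparison of stretched with non-stretched cells. Of these, 36 were the Nfe2l2 stage difference, which passed in 48 of 48 leave-outs when filtered again (adjusted p 0.00192 to 0.0254) and in 12 of 48 with the genes kept (0.00824 to 0.13).

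Whether the replicate numbers pair the libraries was not settled. Of 23 pairs with the same number 6 had a correlation of deviations over 0.1 (-0.044 to 0.153), and pairs of unlike number were not examined. With the replicate block, Nfe2l2 in myoblasts at 3 h (0.0514), Gclm (0.0525) and Osgin1 (0.0655) in differentiated cells at 3 h and Keap1 at 6 h (0.071) missed the limit, and Slc7a11 (0.00878) at 3 h and Hmox1 (0.0118) at 6 h in myoblasts and Gclm (0.0396) at 6 h in differentiated cells passed. Of other genes, Cyp1b1 (0.0502 in myoblasts, 0.0898 in differentiated cells), Ahrr (0.0693) and Aldh3a1 (0.0612) at 3 h and Bach2 (0.0559) at 6 h in differentiated cells were lost. Among all genes, calls in differentiated cells at 1 h past both limits were 42, and 98 with DESeq2, 66 with no filter, 126 with all 24 libraries and 66 with the experiment; at the adjusted p alone they were 103, and 324, 158, 553 and 292, and 156 with the block. In myoblasts at 1 h the adjusted p alone passed 884 genes, and 1440 with all 24 libraries.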
